A study of Rattus norvegicus with 6 samples.

Results

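The colony-stimulating factors and their receptors were examined in myocardial tissue of rats with and without acute ischemia. The family comprised 7 genes of the 32623 in the table: the ligand genes Csf1, Csf2 and Csf3 and the receptor genes Csf1r, Csf2ra, Csf2rb and Csf3r. The members were chosen by gene family name, and all 7 were found in the table by symbol. RNA sequencing was performed on total RNA of 6 samples from male rats of genotype WT, 3 labelled sham and 3 labelled ischemia, at 30 min. In the ischemia rats, under anesthesia, ventilation and left thoracotomy, the LAD, the left anterior descending artery, was tied around a tube, and ST-segment elevation marked the occlusion. The labels describe no operation for the sham rats apart from the procedure shared by all rats. The study's methods describe a sham operation and vehicle injection for the sham group of its reperfusion experiment, and do not say whether this holds for the samples used here. The strain, the age and the region of the heart that was sampled are not given in the sources used here. The labels do not say whether the replicates were separate animals, although the study calls the sequencing heat map representative of independent experiments. P-values measure the spread between these samples.

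Colony-stimulating factors are secreted cytokines that drive the production, survival and activation of myeloid cells. Csf1 (M-CSF) signals through Csf1r, a receptor tyrosine kinase of monocytes and macrophages, and maintains macrophages in tissues such as the heart. Csf2 (GM-CSF) binds a receptor made of the ligand-binding chain Csf2ra and the signal-transducing chain Csf2rb, which is also shared by the receptors of interleukin 3 and interleukin 5. Csf3 (G-CSF) acts through Csf3r, which is characteristic of neutrophils and their precursors and activates the JAK-STAT pathway.

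Each sample held between 68529126 and 79591989 counts, and the detection floor of 3 counts stood between 0.0377 and 0.0438 CPM (counts relative to library size). This floor reflects counting error alone. Values per sample are given in the order of replicates 1 to 3. Apart from their group, the libraries were not alike. Summed FPKM (fragments scaled to gene length and library size) of 4 atrial markers was 48340, 214.9 and 39200 in the sham libraries against 9610, 2078 and 1279 in the ischemia libraries. Sham replicate 1 had 26 counts over 3 Y-linked genes, whereas every other sample, from rats likewise labelled male, had between 1772 and 4318. The 6 cardiomyocyte markers were present in every sample, with a summed FPKM of 23780 to 30310 in sham and 8139 to 16050 in ischemia. The family also had its highest value in the same library throughout. For 7 of 7 members this was ischemia replicate 2, which was the highest sample for 39.3% of all tested genes.

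Sequence before the listed start of the family members was taken from RefSeq (build GRCr8), whose tables held a window for 4 of the 7 members. The listed start is not always the first base of the gene: it lies 94 bases inside the RefSeq gene bounds for Csf3r, 227 for Csf1r and 691 for Csf2ra. For Csf2 it coincides with the gene bound, and for Csf2 and Csf1r it falls on an ATG triplet, so positions there may count from a start codon rather than a transcription start. The windows of Csf2 and Csf3r are shown, because for Csf1r and Csf2ra the listed start lies further inside the gene bounds. Capitals mark the cytokine-1 element GAGATTCC, an element known from colony-stimulating factor promoters, and the core site GAGGAA of PU.1 (encoded by Spi1), a myeloid transcription factor, which reads TTCCTC on the opposite strand. The Csf2 stretch lies at chr10:38889715-38889842 on the minus strand and covers 128 bases, from -169 to -42 relative to the listed start. The Csf3r stretch lies at chr5:143583030-143583095 on the plus strand and covers 66 bases, from -190 to -125, which is outside the gene bounds.
Csf2: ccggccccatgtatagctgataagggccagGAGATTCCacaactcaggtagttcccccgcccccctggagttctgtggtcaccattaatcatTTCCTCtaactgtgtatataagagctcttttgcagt
Csf3r: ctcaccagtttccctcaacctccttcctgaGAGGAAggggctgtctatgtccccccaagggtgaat

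In Csf2 the cytokine-1 element stood at -139 to -132 and the PU.1 core, on the opposite strand, at -77 to -72. In Csf3r the PU.1 core stood at -160 to -155. Searched on both strands of the 250 bases before the listed start, the cytokine-1 element occurred in 0.72% of the 33469 rat windows of this kind and the PU.1 core in 23.3%. The Csf1r window held the PU.1 core at -229 to -224 and at -95 to -90, and the Csf2ra window held it at -41 to -36 beside a match to the NF-kB consensus at -62 to -53. The Csf2ra matches and the Csf1r match at -95 lie inside the gene bounds, and the Csf1r match at -229 spans the bound. The NF-kB consensus occurred in 3.54% of all windows. No match to the AP-1 site TGANTCA (6.34% of windows) or the C/EBP site TTGCNNAA (9.22%) was found in the 4 windows, and no matches overlapped each other. Such matches describe letters in a window measured from a listed start, and binding was not measured here.

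All 7 members passed the filter on low values, a minimum of 0.5 for FPKM averaged across the 6 samples. Csf2, Csf3 and Csf3r had sham means under 0.5 and passed only through the ischemia samples, so a count over the members is given as a description. With the quasi-likelihood test of edgeR and Benjamini-Hochberg adjustment over 13964 genes at a threshold of 0.05, Csf1, Csf3, Csf2ra, Csf2rb and Csf3r were higher in ischemia (5 of 7). By edgeR 0 members were lower, also at an unadjusted p under 0.05 and with DESeq2, and Csf1r was higher at an unadjusted p under 0.05 only. Across all tested genes 5.18% were called higher and 1.53% lower. In 6 of 7 members the 3 ischemia values all lay above the 3 sham values, which was so for 23.6% of tested genes. In bulk tissue, fewer or more cells of a type and less or more RNA per cell cannot be told apart.

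**Figure D1:**
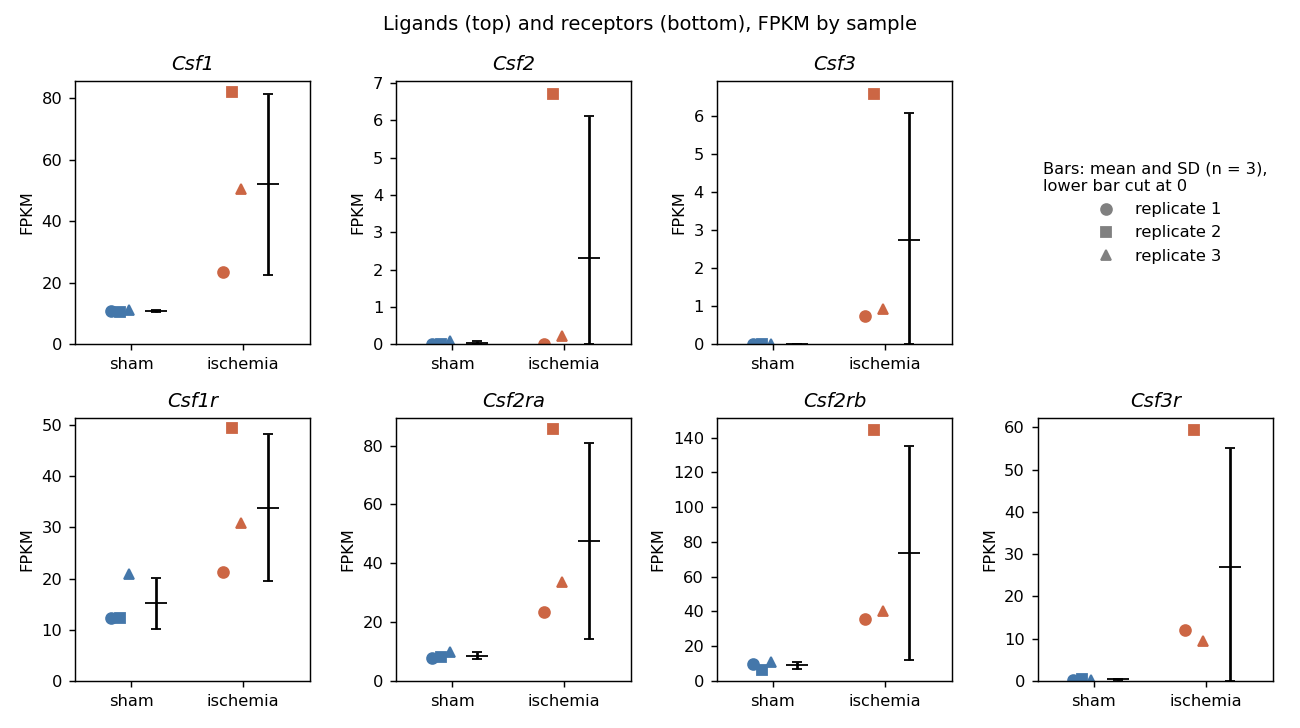
FPKM of the 3 ligand genes (top) and 4 receptor genes (bottom) in each of the 3 sham (blue) and 3 ischemia (orange) samples, with symbols for replicates 1 to 3 and bars for the mean and SD (n = 3, lower bar cut at 0). The square of ischemia replicate 2 is the highest point in all 7 panels, and only in the Csf2 panel do ischemia points reach the sham range.

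Among the ligands, Csf1, the macrophage growth factor (ENSRNOG00000018659, chromosome 2, 210522375 to 210550546, minus strand), was the most abundant in both groups. Its FPKM was 10.7, 10.47 and 11.09 in the sham libraries against 23.32, 81.98 and 50.47 in the ischemia libraries. The sham values lay close together, while the ischemia values were spread and did not overlap with them. The mean was 10.75 ± 0.313 in sham and 51.9 ± 29.4 in ischemia (SD, n = 3). Csf1 rose by 2.16 ± 0.43 on the log2 scale (SE), a fold of 4.46, with an edgeR adjusted p of 0.04345. The exact permutation test on mean FPKM gave p = 0.1, the smallest that 3 samples against 3 allow (two-sided).

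Csf3, the growth factor of the neutrophil lineage (ENSRNOG00000008525, chromosome 10, 86616785 to 86619157, plus strand), had 0 counts in each of the 3 sham samples, which allows up to 0.0382 to 0.0428 CPM. In the ischemia libraries it had 80, 640 and 85 counts, or an FPKM of 0.746, 6.59 and 0.921. Every ischemia sample therefore had reads on Csf3, most of them in replicate 2. Csf3 was at least 81.3-fold higher in ischemia than the floor of 3 counts per sham library, and at least 27.0-fold higher without ischemia replicate 2. The edgeR adjusted p was 0.0478, and the call was lost with limma on log2(FPKM + 1) (adjusted p = 0.114), without a filter (0.0519) and with total-count scaling (0.0512). The fitted log2 fold change of 10.98 ± 1.84 depends on the prior count, because sham was at 0, and is no bound.

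Csf2, an activator of granulocytes and macrophages (ENSRNOG00000026805, chromosome 10, 39602089 to 39604070, minus strand), was nearly undetected outside a single library. It had 0, 0 and 4 counts in the sham libraries against 0, 223 and 7 in the ischemia libraries. Ischemia replicate 2 held 97.0% of the Csf2 counts of its group, at an FPKM of 6.72, while ischemia replicate 1 had none, so the groups overlapped. The log2 fold change of 5.59 ± 2.38 did not pass the test (edgeR adjusted p = 0.16, exact permutation p = 0.4).

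Among the receptors, Csf3r (ENSRNOG00000008759, chromosome 5, 144031402 to 144051600, plus strand) had the largest fitted fold change. Its counts were 87, 163 and 90 in the sham libraries against 4039, 18230 and 2739 in the ischemia libraries. This corresponded to an FPKM of 0.278, 0.491 and 0.3 in sham against 12.0, 59.3 and 9.42 in ischemia. The lowest ischemia sample was thus far above the highest sham sample. Csf3r rose by 6.04 ± 0.89 on the log2 scale, a fold of 65.6, with an edgeR adjusted p of 0.0297.

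Both chains of the GM-CSF receptor were higher in ischemia. Csf2ra (ENSRNOG00000049782, chromosome 14, 1462358 to 1467264, plus strand), the ligand-binding chain, had an FPKM of 7.9, 7.98 and 9.98 in the sham libraries against 23.5, 85.5 and 33.8 in the ischemia libraries. Csf2rb (ENSRNOG00000000187, chromosome 7, 119554354 to 119568776, plus strand), the signalling chain, had an FPKM of 9.83, 6.47 and 10.6 in sham against 35.6, 144.5 and 40.4 in ischemia. For both chains the groups did not overlap and replicates 1 and 3 of ischemia lay near each other, with replicate 2 above them. Csf2ra rose by 2.34 ± 0.46 on the log2 scale, a fold of 5.07 (edgeR adjusted p = 0.0431). Csf2rb rose by 2.92 ± 0.56 on the log2 scale, a fold of 7.58 (edgeR adjusted p = 0.0405).

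Csf1r, the receptor of macrophages (ENSRNOG00000018414, chromosome 18, 56414488 to 56457869, plus strand), had the smallest log2 fold change of the family and did not pass the test. Its FPKM was 12.3, 12.4 and 20.9 in the sham libraries against 21.3, 49.5 and 30.9 in the ischemia libraries. The highest sham sample, replicate 3, nearly reached the lowest ischemia sample, replicate 1. The means were 15.2 ± 4.97 in sham and 33.9 ± 14.4 in ischemia (SD, n = 3), and the log2 fold change was 1.07 ± 0.34 (edgeR adjusted p = 0.0941, exact permutation p = 0.1). With DESeq2, which called 14.8% of tested genes higher, Csf1r passed (adjusted p = 0.0265), and with edgeR without ischemia replicate 1 it also passed (adjusted p = 0.0393).

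The order of the members by mean FPKM differed between the groups. In sham, Csf1r was highest, followed by Csf1, Csf2rb, Csf2ra, Csf3r, Csf2 and Csf3. The value ranges of Csf1 and Csf2rb overlapped, as did those of Csf2rb and Csf2ra and those of Csf2 and Csf3, whereas Csf1r lay above Csf1, and Csf3r lay between Csf2ra and Csf2 without overlap. In ischemia the order was Csf2rb, Csf1, Csf2ra, Csf1r, Csf3r, Csf3 and Csf2. There the first 5 overlapped with their neighbours, as did Csf3 and Csf2, and the gap between Csf3r and Csf3 was the one without overlap. Csf3r had a mean of 0.356 ± 0.117 FPKM in sham and of 26.9 ± 28.1 FPKM in ischemia (SD, n = 3), the lowest mean of the 4 receptors in both groups. In ischemia replicates 1 and 3 it lay below the other receptors, and in replicate 2 it lay above Csf1r.

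The share of the changes that rested on ischemia replicate 2 was examined next. FPKM in this library over the mean of ischemia replicates 1 and 3 was 2.22 for Csf1, 64.4 for Csf2, 7.91 for Csf3, 1.9 for Csf1r, 2.99 for Csf2ra, 3.81 for Csf2rb and 5.55 for Csf3r. The median of this ratio was 1.09 over all tested genes and 1.51 over the 723 genes called higher, of which 83.4% were highest in that library. Without it, edgeR called 3.21% of 13847 genes higher. Csf3r (log2 fold change 4.82, adjusted p = 0.0237), Csf2rb (2.08, adjusted p = 0.0237) and Csf2ra (1.71, adjusted p = 0.0346) still passed. Csf1 lost its call (1.75, adjusted p = 0.0602), Csf1r had a log2 fold change of 0.77 (adjusted p = 0.18), and Csf2 and Csf3 fell under the filter and were not tested. Without ischemia replicate 1, edgeR called 10.7% of genes higher, and 6 members passed, all except Csf2. Without sham replicate 1, 2 or 3, or ischemia replicate 3, edgeR called 0 genes of the whole table at the adjusted threshold, against 1770 to 2128 called higher at an unadjusted p under 0.05 (18.2% of tested genes with all 6 samples). The family lost every call in each of these 4 fits, with 5 or 6 members at an unadjusted p under 0.05 and log2 fold changes that stayed positive.

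**Figure D2:**
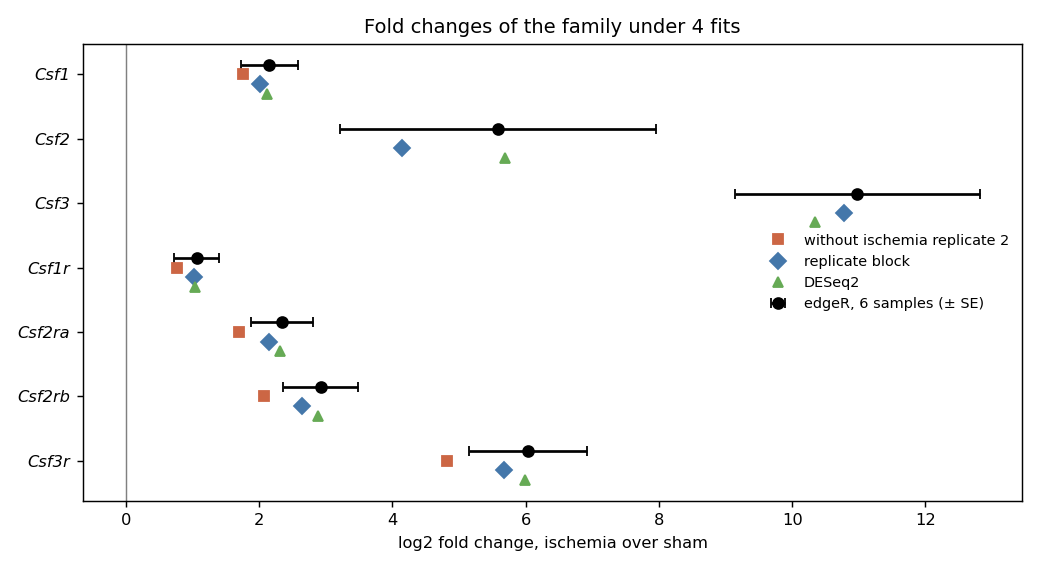
Log2 fold change of ischemia over sham for the 7 members in edgeR with 6 samples (black, with SE), without ischemia replicate 2 (orange), with the replicate number as a block (blue) and in DESeq2 (green). All points lie above 0, Csf2 and Csf3 have no point without ischemia replicate 2 because they were not tested there, and the Csf3 values are no bounds because its sham samples were at 0.

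Ratios of FPKM within a sample compare ligands, receptors and marker genes in the same library. All ratios were chosen after the values were seen. Of the 8 that were tested, none passed the exact permutation test, whose smallest possible p of 0.1 became 0.133 after Benjamini-Hochberg adjustment over the 8. The ratio of Csf1 to its receptor Csf1r was 0.873, 0.846 and 0.53 in the sham libraries against 1.1, 1.66 and 1.63 in the ischemia libraries. The ligand was thus below the receptor in every sham sample and above it in every ischemia sample. The ratio of Csf2rb to Csf2ra was 1.24, 0.81 and 1.06 in sham against 1.51, 1.69 and 1.2 in ischemia, and these groups overlapped (exact permutation p = 0.2, adjusted p = 0.229).

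The receptor genes were also set against markers of the cells that carry them. Csf3r over Itgam, an integrin of neutrophils and monocytes, was 0.393, 0.63 and 0.355 in the sham libraries against 1.91, 2.5 and 0.81 in the ischemia libraries, without overlap. Csf3r over Cxcr2, a chemokine receptor of neutrophils, was 1.28 ± 0.733 in sham and 2.03 ± 0.714 in ischemia (SD, n = 3), and these groups overlapped (exact permutation p = 0.3). The order depended on the marker: over S100a8, an alarmin of neutrophils, the untested ratio of Csf3r was 0.09, 0.0767 and 0.175 in sham against 0.0553, 0.0504 and 0.0476 in ischemia, lower without overlap. Of the 6 neutrophil markers examined with reads in every sample, the ratio of Csf3r was higher without overlap for 1 (Itgam), lower without overlap for 1 (S100a8) and overlapped for the other 4. Csf1r also gave opposite orders against different macrophage markers. Over Cd68, a lysosomal protein of phagocytes, it was 0.897, 1.42 and 1.43 in sham against 0.729, 0.51 and 0.598 in ischemia. Over C1qb, a complement chain of resident macrophages, it was 0.192, 0.28 and 0.341 in sham against 0.352, 0.822 and 0.574 in ischemia. Thus every ischemia sample was lower than every sham sample over Cd68 and higher over C1qb. Of the 12 macrophage markers in the table, the ratio of Csf1r was higher without overlap for 4 (Adgre1, C1qa, C1qb and C1qc), lower without overlap for 3 (Cd68, Cd14 and Aif1) and overlapped for the other 5 (Cd163, Mrc1, Lyve1, Cx3cr1 and Mertk). Apart from Cd68 and C1qb these ratios were not tested.

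**Figure D3:**
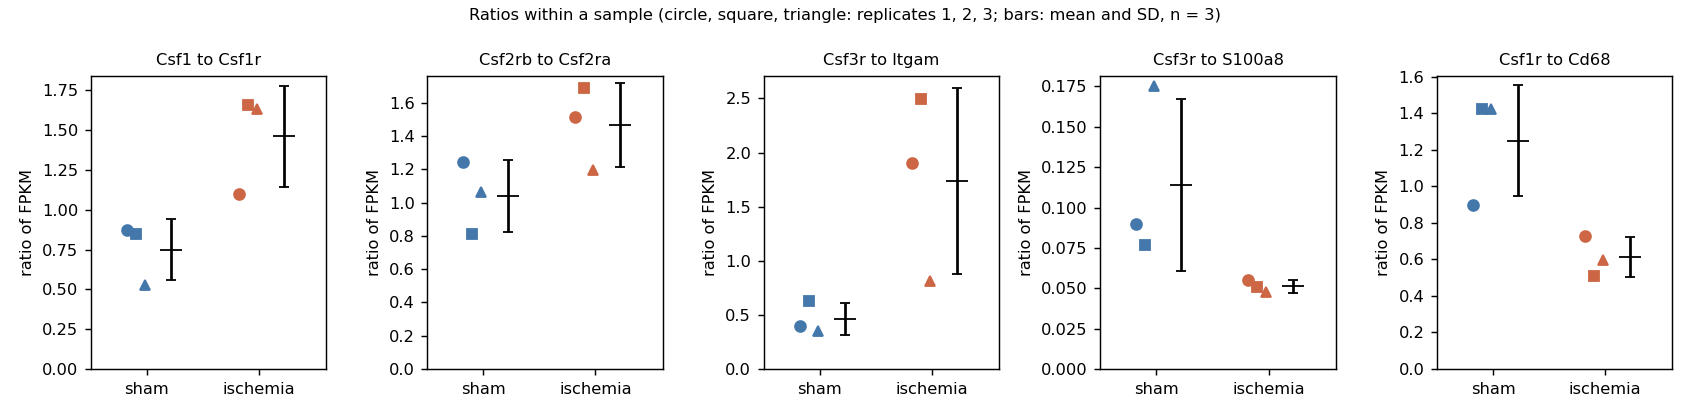
Ratios of FPKM within each sample for Csf1 to Csf1r, Csf2rb to Csf2ra, Csf3r to Itgam, Csf3r to S100a8 and Csf1r to Cd68 in 3 sham (blue) and 3 ischemia (orange) samples, with bars for the mean and SD (n = 3). Csf1 to Csf1r and Csf3r to Itgam lie higher in ischemia without overlap, Csf3r to S100a8 and Csf1r to Cd68 lie lower without overlap, and Csf2rb to Csf2ra overlaps.

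Other ligands and receptor chains that use the same receptors were examined for comparison. Il34, the other ligand of Csf1r, had an FPKM of 3.94, 4.87 and 5.34 in the sham libraries against 4.19, 1.6 and 4.63 in the ischemia libraries. Its log2 fold change was -0.51 ± 0.47 (edgeR adjusted p = 0.471), and ischemia replicate 2, the highest library for Csf1, was the lowest for Il34. The ratio of Csf1 to Il34 was 2.72, 2.15 and 2.08 in sham against 5.56, 51.2 and 10.9 in ischemia. Il3ra, the interleukin 3 binding chain that pairs with Csf2rb, had a log2 fold change of 0.2 ± 0.39 (edgeR adjusted p = 0.74). The ratio of Csf2ra to Il3ra was 1.77, 1.92 and 1.59 in sham against 5.16, 8.34 and 9.18 in ischemia, without overlap. The remaining partners were at the limit of detection: Il3 had 4 counts in ischemia replicate 3 and none elsewhere, Il5ra had 4 counts in ischemia replicate 1 and none elsewhere, and Il5 had none.

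Of the 20 genes that carry signals from these receptors, 5 rose, 1 fell and 14 did not pass the edgeR test. Over all tested genes 5.18% rose and 1.53% fell. DESeq2 called 8 of the 20 higher and 3 lower, against 14.8% and 12.5% of all tested genes. The median log2 fold change by edgeR was 0.78 against 0.00 over all tested genes. Among the genes that rose were Socs3, the feedback inhibitor of Csf3r signalling (4.34 ± 0.42, edgeR adjusted p = 0.0246), Jak2, the kinase bound to Csf2rb (2.16 ± 0.32), Ptpn6, a phosphatase that dampens cytokine receptors (2.12 ± 0.4), and Stat3, the main transcription factor activated by Csf3r (1.4 ± 0.19). Socs2, another feedback inhibitor, fell by 1.03 ± 0.22 on the log2 scale (edgeR adjusted p = 0.0485), a call that was lost with both limma fits, no filter, filterByExpr and total-count scaling. Stat5a and Stat5b, the factors activated by the GM-CSF receptor, had log2 fold changes of -0.3 and -0.54 (edgeR adjusted p = 0.261 and 0.0959). The genes that moved thus included feedback inhibitors as well as activators of the pathway.

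Of the 16 regulators of the ligand and receptor genes, 9 rose and 0 fell (edgeR, also 0 by DESeq2 or at an unadjusted p under 0.05), against 5.18% and 1.53% of all tested genes, with a median log2 fold change of 1.71. They comprised the myeloid transcription factors Spi1 (2.76 ± 0.45), Cebpe (4.64 ± 0.65) and Runx1 (2.97 ± 0.52), the stress-responsive Cebpb (2.73 ± 0.42), Cebpd (2.75 ± 0.28) and Fosl1 (4.69 ± 0.87), and the NF-kB subunit Rel (2.68 ± 0.47). The remaining genes that rose were Zfp36 (1.69 ± 0.33) and Zc3h12a (1.22 ± 0.27), whose proteins promote decay of cytokine mRNAs, so the genes that rose included regulators of both synthesis and decay. Cebpa had the lowest log2 fold change, 0.01 ± 0.71 (edgeR adjusted p = 0.996). Its FPKM was 2.54, 3.28 and 17.3 in the sham libraries against 5.84, 11.5 and 6.54 in the ischemia libraries. Sham replicate 3 was thus its highest sample, and sham replicates 1 and 2 lay below every ischemia sample. Cebpe and Rel had sham means under 0.5 FPKM and passed the filter only through ischemia.

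**Figure D4:**
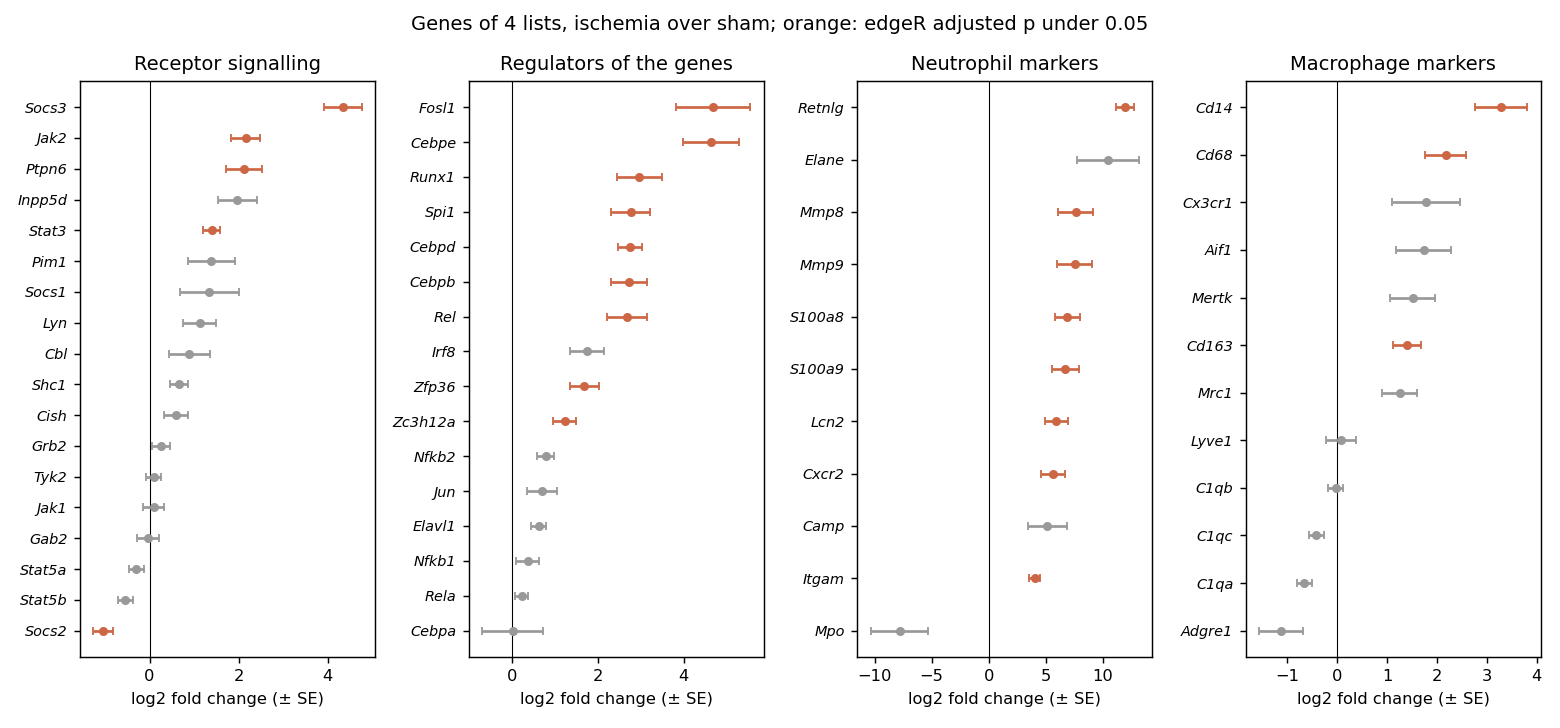
Log2 fold change of ischemia over sham with SE for genes of 4 lists, the receptor signalling genes, the regulators of the ligand and receptor genes, the neutrophil markers and the macrophage markers, with genes past an edgeR adjusted p of 0.05 in orange. Apart from Mpo the neutrophil markers shown lie above 0, the macrophage markers lie on both sides of 0, and the values of Retnlg and Elane depend on the prior count because their sham samples were at 0.

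Markers of the cells that carry these receptors were then counted. Of 15 neutrophil markers, 12 were tested, 9 rose and 0 fell (edgeR, 1 lower at an unadjusted p under 0.05 and 0 by DESeq2), against 5.18% of all tested genes called higher and 1.53% lower, or 14.2% lower at an unadjusted p under 0.05. The median log2 fold change was 6.41, or 6.03 with the 2 tested markers at 0 in sham, Retnlg and Elane, set to their lower bound. Summed FPKM of the 15 markers was 14.7, 31.4 and 17.4 in the sham libraries against 1454, 3817 and 827.3 in the ischemia libraries, so ischemia replicate 2 was the highest, as it was for the family, and 7 of the 12 had sham means under 0.5 FPKM. Examples were the alarmins S100a8 (6.91 ± 1.07) and S100a9 (6.72 ± 1.18) and the granule protein Lcn2 (5.94 ± 0.99). Lcn2 differed from the family in its order within ischemia, with an FPKM of 952.1, 137.1 and 337.2 and so its lowest value in replicate 2. Retnlg, Mmp8, Mmp9, Cxcr2 and Itgam also rose, the last with the smallest log2 fold change of these 9 (4.03 ± 0.49). The 3 tested markers that did not pass the edgeR test were the granule genes Mpo, Elane and Camp. Mpo had 0, 119 and 808 counts in the sham libraries against 0, 4 and 0 in the ischemia libraries, and had the lowest log2 fold change of the list (-7.82 ± 2.53, edgeR adjusted p = 0.0993). Elane had 0 counts in sham against 18, 530 and 21 in ischemia (edgeR adjusted p = 0.0875). Camp had 0, 0 and 10 counts in sham against 36, 326 and 37 in ischemia (5.16 ± 1.69, edgeR adjusted p = 0.102). Cxcr1 was at 0 in all samples, and 5 of the 15 markers were at 0 in all sham samples. The part of the neutrophil markers in the values of Csf3r, Csf2ra and Csf2rb was not tested.

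Of 14 macrophage and monocyte markers, 12 were in the table, 3 rose and 0 fell (edgeR, 3 lower at an unadjusted p under 0.05), with a median log2 fold change of 1.32. Over all tested genes these shares were 5.18%, 1.53% and 14.2%. With DESeq2, 6 rose and 2 fell, against 14.8% higher and 12.5% lower over all tested genes. The genes that rose were Cd14, a co-receptor for endotoxin (3.29 ± 0.53), Cd68 (2.17 ± 0.42) and the scavenger receptor Cd163 (1.4 ± 0.28). The complement gene C1qa had a log2 fold change of -0.66 ± 0.15 (edgeR adjusted p = 0.0504), and the lowest value was that of Adgre1, at -1.13 ± 0.44 (edgeR adjusted p = 0.135). Summed FPKM of the 12 genes was 204.7 to 288 in sham and 265.3 to 484.1 in ischemia, so the groups overlapped, and 0 of the markers were at 0 in all sham samples. The part of these markers in the values of Csf1r was not tested. Of the markers tested for cardiomyocytes (6), atrial cells (4), endothelial cells (3), fibroblasts (4), lymphoid cells (4) and mast cells (3), 0 passed the edgeR test, with median log2 fold changes of -1.15, -3.6, -0.12, -0.73, 0.75 and 0.55. At an unadjusted p under 0.05, 3 cardiomyocyte, 1 fibroblast and 1 mast cell marker were lower and 1 lymphoid marker was higher, and DESeq2 gave the same counts.

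The pathway annotation in the table places the family in 4 pathways, which were chosen after the values were seen. Over all tested genes 5.18% were called higher and 1.53% lower. All 7 members belong to cytokine-cytokine receptor interaction, where 40 of 156 tested genes were called higher and 3 lower by edgeR, and where 35 of 149 were called higher without the family. The hematopoietic cell lineage pathway holds 6 members, and without them 13 of 60 genes were called higher and 2 lower. The Jak-STAT signaling pathway holds 5 members, and without them 16 of 97 genes were called higher and 2 lower. The MAPK signaling pathway holds Csf1 and Csf1r, and without them 18 of 243 genes were called higher and 3 lower. The median log2 fold change without the family was 1.02, 0.87, 0.2 and 0.2 in these pathways, in that order.

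Patterns over the 6 samples were compared between genes, leaving out placeholder names such as LOC or AABR and the RT1 and Vom genes. Among the rest, the genes most like each member were found by the root mean square difference of mean-centred log2(FPKM + 0.1) values. For Csf1 these were Trpv4 (0.12), Myo1g (0.133) and Psd4 (0.148). For Csf3 they were Clec4b2 (0.144), Clec7a (0.182) and Tnfaip6 (0.193), and for Csf2 they were Defb52 (0.346), Nos2 (0.476) and Sprr1a (0.484). Csf1r was closest to Gm2a (0.0732), Vim (0.0851) and Fut4 (0.108). Csf2ra was closest to Tgif1 (0.0943), Rasgrp4 (0.13) and Ctsz (0.13), and Csf2rb to Tm4sf19 (0.137), Alox5ap (0.178) and Il17ra (0.189). Csf3r was closest to the neutrophil chemokine gene Cxcl1 (0.187), and the neutrophil marker Mmp9 was also among its nearest genes (0.397). Nos2, the inducible nitric oxide synthase, shared the single high library of Csf2, with an FPKM of 46.9 in ischemia replicate 2 and of 0.824 to 2.38 in the other 5 samples.

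Of the 14 nearest tested genes on the chromosome, on either side of each member, 3 were called higher (Crlf2, Ncf4 and Zc3h12a), against 5.18% of all tested genes. No gene of the table overlapped a member. Csf3 lies between Psmd3, a proteasome subunit gene 5597 bases away (log2 fold change 0.4, edgeR adjusted p = 0.191), and Med24, a Mediator subunit gene 1003 bases away (-0.29, adjusted p = 0.323). Csf1r lies 8107 bases from Pdgfrb, a related receptor tyrosine kinase of mural cells and fibroblasts (log2 fold change -0.29, edgeR adjusted p = 0.335). Csf2ra lies 815 bases from Crlf2, the receptor gene of thymic stromal lymphopoietin, on the opposite strand. Crlf2 rose as well, with 405, 372 and 460 counts in the sham libraries against 1100, 2337 and 1087 in the ischemia libraries (log2 fold change 1.78, edgeR adjusted p = 0.0395), whereas Ppp2r3b on the other side of Csf2ra had a log2 fold change of 0.2 (adjusted p = 0.531). Csf2rb lies 54929 bases from Ncf4, a subunit gene of the phagocyte oxidase, which also rose (3.17, edgeR adjusted p = 0.0396), whereas Tst on its other side had a log2 fold change of -0.91 (adjusted p = 0.173). The gene next to Csf3r, Mrps15, at 2852 bases, had a log2 fold change of -0.27 (edgeR adjusted p = 0.529), and Zc3h12a, on its other side, lies 911237 bases away. The neighbours of Csf1 (Ahcyl1, 0.14, and Gstm5, -0.82) and of Csf2 (P4ha2, 0.5, and Acsl6, -1.42) did not pass the test, nor did Hmgxb3 beside Csf1r (0.14).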

How the data were processed

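The authors deposited 1 table of 32623 Ensembl rat genes, with raw counts and FPKM for each of the 6 samples. The deposited raw counts were whole numbers and not normalized. FPKM had been computed by the authors from the counts, with genes without reads set to 0.0001, which was read as 0. The submitters' processing notes name STAR and HTSeq without versions. The genome build is not given in the sources used here, so gene positions stand as listed and cannot be compared with RefSeq positions. The library kit keeps strand, and the counting setting is not given. The pathway annotation came from the same table. No comparison made by the authors was used.

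Samples were grouped by their labels. Counts of the 13964 genes whose FPKM averaged 0.5 or more across the 6 samples were scaled by the trimmed mean of M-values and tested with the quasi-likelihood test of edgeR, ischemia against sham without covariates, two-sided, with Benjamini-Hochberg adjustment at 0.05. The SE of an edgeR log2 fold change was derived as its absolute value over the square root of the F statistic of the test. Single values were compared with exact permutation tests. Partners, signalling genes, regulators and markers came from fixed lists. Of these, the genes past the adjusted threshold and the lowest were named, and for each member the 3 genes closest in pattern. Of the genes this rule names, 3 are not reported here, in the text or the plots, though they remain in the counts and medians. Stat5a, Stat5b, C1qa, Elane, Cxcr1, C1qb and the chromosomal neighbours were added after their values were seen. The members and lists were chosen with earlier results of these data known.

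The alternatives were limma on log2(FPKM + 0.1) and on log2(FPKM + 1), no filter, the edgeR filter filterByExpr, median-ratio and total-count scaling, DESeq2, the replicate number as a block and each of the 6 samples left out. Upstream sequences were matched by symbol. Software versions were Python 3.11.15 with scipy 1.17.1 and matplotlib 3.10.9, and R 4.3.3 with DESeq2 1.42.0, limma 3.58.1 and edgeR 4.0.16.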

Additional observations from a re-analysis of the deposited data

How the results depend on the processing

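All log2 fold changes of the 7 members stayed positive under the 12 to 14 alternatives that could be run for each. DESeq2 called 2071 genes higher and 1742 lower, against 723 and 214 with edgeR. It called 8 receptor signalling genes higher and 3 lower, and 6 macrophage markers higher and 2 lower. Total-count scaling left 83 genes lower and 1 macrophage marker higher, no filter left 93 genes lower, and median-ratio scaling gave 1 macrophage marker lower. Socs2, the signalling gene called lower, lost its call (0 genes lower) with both limma fits, no filter, filterByExpr and total-count scaling. Csf3 lost its call with limma on log2(FPKM + 1) (adjusted p = 0.114), no filter (0.0519) and total-count scaling (0.0512). filterByExpr dropped Csf2. The causes were not tested.

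With the replicate number as a block, edgeR called 0 genes higher or lower, in the table, the family and each list, against 1826 higher and 1523 lower at an unadjusted p under 0.05. In that fit 6 members had an unadjusted p under 0.05, and their log2 fold changes were 2.01 for Csf1, 10.78 for Csf3, 1.03 for Csf1r, 2.16 for Csf2ra, 2.64 for Csf2rb and 5.68 for Csf3r. Correlations of same-numbered deviations were -0.196 to -0.056, against -0.046 to 0.199 for different numbers. The deviations were centred within groups of 3, so these values constrain one another. They cannot decide whether samples of the same number were paired.

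With each sample left out in turn, edgeR called 0 to 1495 genes higher and 0 to 1115 lower, 0 to 6 members of the family, 0 to 7 signalling genes higher and 0 to 1 lower, 0 to 11 regulators, 0 to 9 neutrophil markers and 0 to 6 macrophage markers higher. The counts were 0 without sham replicate 1, 2 or 3 or ischemia replicate 3. The depth leaves Csf2 and Csf3 in sham at or near the floor of 3 counts.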
